A study of Rattus norvegicus with 9 samples.

Results

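The 10 genes described here are CXC chemokine ligands and 1 of their receptors in rat dendritic cells: Cxcl1, Cxcl2, Cxcl3 and Cxcl6, which attract neutrophils, Cxcl9, Cxcl10 and Cxcl11, which interferons induce, the further ligands Cxcl13 and Cxcl16, and the receptor Cxcr2. They were chosen by name, and all 10 are among the 20442 genes of the deposited table. RNA was sequenced from 9 cultures of wild-type rat bone marrow cells grown in medium with 10% serum and 20 ng/mL of each of the cytokines GM-CSF and IL-4, which favour dendritic cells, the phagocytes that show antigen to T cells. The LPS+EVs cultures (n = 3) received lipopolysaccharide (LPS), the endotoxin of bacterial walls, together with extracellular vesicles (EVs) shed by ASCs, the LPS cultures (n = 3) received LPS without the vesicles, and the Control cultures (n = 3) are labelled as untreated. The labels give LPS at 1 µg/mL, a further 50 ng/mL of something that they do not name, and 24 h of treatment. They name no EV dose and do not say which groups received the unnamed agent, so its effect and those of LPS and the vesicles cannot be told apart. Replicates carry the word biological, with no statement of separate animals, so p-values measure only the spread between these cultures.

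CXC chemokines are small secreted proteins that steer leukocytes along gradients through G protein-coupled receptors. Cxcl1, Cxcl2, Cxcl3 and Cxcl6 carry the glutamate-leucine-arginine motif before their first cysteines and act on Cxcr2, the receptor that draws neutrophils to infected tissue; their transcription after Toll-like receptor stimulation depends largely on NF-kB, and their mRNAs are short-lived. Cxcl9, Cxcl10 and Cxcl11 lack that motif and act on Cxcr3, which guides activated T cells and NK cells; interferons induce them, with NF-kB as a partner at Cxcl10. Cxcl13 attracts B cells through Cxcr5, and Cxcl16 is a membrane-bound ligand of Cxcr6 that is also a scavenger receptor and can be shed from the cell surface.

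The start regions of these genes show which binding motifs the 2 ligand groups hold. RefSeq promoter sequences of build GRCr8, 300 bases long from 250 before to 50 after the annotated start, were found for 9 of the 10 genes, Cxcl3 being the gene without an entry. Cxcl1 and Cxcl6 are printed as neutrophil-attracting ligands, and Cxcl10 and Cxcl11 as interferon-induced ligands, 5′ to 3′ on the strand of the gene; capitals mark every match to the motifs searched, and longer runs of capitals are overlapping matches.
Cxcl1 (chr14:17479272-17479571, minus strand): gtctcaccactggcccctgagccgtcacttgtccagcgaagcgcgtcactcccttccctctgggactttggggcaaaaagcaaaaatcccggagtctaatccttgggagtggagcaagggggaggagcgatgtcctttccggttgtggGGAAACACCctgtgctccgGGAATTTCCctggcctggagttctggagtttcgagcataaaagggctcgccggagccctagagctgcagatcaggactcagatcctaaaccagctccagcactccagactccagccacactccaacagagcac
Cxcl6 (chr14:17596368-17596667, minus strand): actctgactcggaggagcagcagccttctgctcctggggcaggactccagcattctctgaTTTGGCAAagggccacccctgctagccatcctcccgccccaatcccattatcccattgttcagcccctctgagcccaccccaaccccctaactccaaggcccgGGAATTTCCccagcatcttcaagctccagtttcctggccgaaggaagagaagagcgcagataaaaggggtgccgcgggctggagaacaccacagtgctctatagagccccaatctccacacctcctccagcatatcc
Cxcl10 (chr14:15988816-15989115, plus strand): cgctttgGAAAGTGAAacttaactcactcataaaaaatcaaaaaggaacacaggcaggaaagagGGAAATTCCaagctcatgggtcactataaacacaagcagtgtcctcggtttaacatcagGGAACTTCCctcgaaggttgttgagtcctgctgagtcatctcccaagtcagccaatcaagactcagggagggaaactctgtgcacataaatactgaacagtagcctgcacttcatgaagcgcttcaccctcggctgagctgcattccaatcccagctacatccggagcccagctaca
Cxcl11 (chr14:15973478-15973777, plus strand): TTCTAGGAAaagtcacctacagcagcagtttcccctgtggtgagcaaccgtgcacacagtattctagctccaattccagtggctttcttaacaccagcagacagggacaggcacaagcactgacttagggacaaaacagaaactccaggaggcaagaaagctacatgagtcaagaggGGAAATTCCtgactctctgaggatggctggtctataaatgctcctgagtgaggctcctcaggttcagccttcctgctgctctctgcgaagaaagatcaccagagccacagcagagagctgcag

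Each motif was searched on both strands in all 33469 rat promoters of this length, with overlapping matches allowed. The NF-kB core motif GGNNNTTCC was in 7 of the 9 promoters, those of Cxcl1, Cxcl2, Cxcl6, Cxcl9, Cxcl10, Cxcl11 and Cxcr2, and in 18.3% of all promoters. Cxcl1 and Cxcl6 share the match GGAATTTCC, at -83 to -75 in Cxcl1 and at -87 to -79 in Cxcl6, where 0 is the first base of the transcript as annotated. Cxcl10 and Cxcl11 share the match GGAAATTCC, at -186 to -178 in Cxcl10 and at -73 to -65 in Cxcl11. The core of the interferon-stimulated response element, GAAANNGAA, was in Cxcl10 alone among the 9, at -243 to -235, and in 9.71% of all promoters. The gamma-activated sequence motif TTCNNNGAA was in Cxcl9 and Cxcl11 (8.87% of all promoters), and the C/EBP motif TTGCNNAA was in Cxcl2, Cxcl6 and Cxcl13 (10.6%). A match describes letters only and is no evidence of binding. The letters of the NF-kB and interferon motifs were set after these promoters had been read. The share of all promoters is therefore no fair background for them, and no enrichment is claimed. In the RefSeq gene order of rat chromosome 14, Cxcl11, Cxcl10 and Cxcl9 follow one another, Cxcl2 lies next to Cxcl1, and Cxcl6 lies next to Ppbp, a further ligand of Cxcr2.

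Reads counted in genes numbered 32148519 to 39407116 a library. Values are FPKM, fragments scaled to gene length and to the library's total, and changes are differences of mean log2(FPKM + 1), which understate the change of genes near 0. The test was limma on every gene that reached 1 FPKM in 3 or more libraries (11141 genes), p-values were adjusted by Benjamini-Hochberg over all of them, and an adjusted p under 0.05 is a call. All 10 genes passed that filter. Cxcr2 passed through Control alone and Cxcl9 through the treated libraries alone, so a difference in these genes was a condition of their being tested. On Control libraries alone, Cxcl6 (1.03, 0.179 and 0.723 FPKM) and Cxcl11 (0.577, 1.7 and 1.06 FPKM) would not have passed either. Their treated levels therefore helped to bring them into the test. The library numbered 2 stood apart from its group in all 3 groups: it scored -35.9 in LPS+EVs, -41.1 in LPS and -20.9 in Control on the second principal component (21% of the variance), and the other libraries scored 1.47 or more. Of 11 dendritic cell markers, 9, 9 and 10 reached 1 FPKM in all 3 libraries of LPS+EVs, LPS and Control, and 11, 10 and 11 of 11 macrophage and monocyte markers and 6, 6 and 7 of 7 stromal markers did so too, so the RNA held markers of other cell types beside those of the labelled one. The summed level of the dendritic cell markers was 1667, 8634 and 2229 FPKM in LPS+EVs, 1268, 8275 and 2269.7 FPKM in LPS and 2020.3, 9726 and 3467 FPKM in Control for replicates 1, 2 and 3. Most of it was 1 gene, Cd74, at 1339, 6102 and 1589 FPKM in LPS+EVs, 939, 5855 and 1467 FPKM in LPS and 1521, 6137 and 2550 FPKM in Control. Of 11 macrophage and monocyte markers 7 fell and 1 rose in each treated group against Control, where 30.8% of all genes tested were called lower and 13.5% higher in LPS+EVs, and 28.7% lower and 12.3% higher in LPS. The macrophage and monocyte markers had sums of 932, 1025 and 920.4 FPKM in LPS+EVs, 782, 911 and 794 FPKM in LPS and 1146, 1237 and 1359 FPKM in Control, and the B cell markers, of which 3 are in the table, summed to no more than 0.185 FPKM in any library. In such bulk RNA, fewer cells of a type and less RNA per cell cannot be told apart.

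All 4 neutrophil-attracting ligands rose in both treated groups against Control, and Cxcl1, Cxcl2 and Cxcl3 were, with Cxcl16, the most abundant of the 10 genes in every treated library. Cxcl1 stood at 289.8, 271 and 308 FPKM in the LPS+EVs libraries, 417, 300.4 and 583 FPKM in the LPS libraries and 9.73, 7.22 and 15.9 FPKM in the Control libraries, each for replicates 1, 2 and 3. Every treated library was above every Control library. Cxcl1, the ligand also called CINC-1 or Gro1, averaged 289.6 ± 18.7 FPKM in LPS+EVs, 433 ± 142 FPKM in LPS and 11 ± 4.48 FPKM in Control (SD, n = 3 each). Its difference from Control was 4.67 (SE 0.29, adjusted p = 1.28e-05) in LPS+EVs and 5.20 (SE 0.29, adjusted p = 7.25e-06) in LPS.

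Cxcl2, a second neutrophil attractant also called Mip-2, had the smallest standard error of the 4 in the fit over all libraries, although in LPS+EVs Cxcl1 spread less between replicates. Cxcl2 stood at 446, 621 and 503 FPKM in LPS+EVs, 528, 577 and 533 FPKM in LPS and 19.8, 22.6 and 21.6 FPKM in Control, for replicates 1, 2 and 3. The groups LPS+EVs and LPS overlapped, and both stood clear of Control. The differences from Control were 4.54 (SE 0.13, adjusted p = 8.73e-07) in LPS+EVs and 4.62 (SE 0.13, adjusted p = 7.60e-07) in LPS, and between libraries of 1 replicate number the LPS minus Control difference stayed between 4.57 and 4.67. Cxcl3, called Cinc-2 in rats, had the highest level of all 10 genes in every treated library. Cxcl3 stood at 1172, 927 and 1354 FPKM in LPS+EVs, 1426, 819.6 and 1765 FPKM in LPS and 92.9, 53.9 and 132 FPKM in Control. Replicate 2 was the lowest in every group, and the treated groups again did not overlap Control. The differences were 3.69 (SE 0.36, adjusted p = 0.000145) in LPS+EVs and 3.85 (SE 0.36, adjusted p = 0.000112) in LPS.

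Cxcl6, which the RefSeq gene table also lists as Cxcl5, was the lowest and the most variable of the 4. Cxcl6 stood at 21.1, 4.06 and 26.7 FPKM in LPS+EVs, 54.9, 2.61 and 90.7 FPKM in LPS and 1.03, 0.179 and 0.723 FPKM in Control. The treated groups did not overlap Control, but replicate 2 stayed far below replicates 1 and 3 in both of them. The differences from Control were 3.18 (SE 1.13, adjusted p = 0.048) in LPS+EVs and 4.04 (SE 1.13, adjusted p = 0.021) in LPS. The LPS call ended without Control replicate 1, 2 or 3 (adjusted p = 0.0515, 0.0631 and 0.0546), without LPS replicate 1 or 3 (0.0686 and 0.0593), without a filter on low values (0.0533) and with limma-voom on recovered reads (0.187). The LPS+EVs call ended under the matching alternatives (adjusted p = 0.0922, 0.12 and 0.10 without Control replicate 1, 2 and 3, 0.129 and 0.132 without LPS+EVs replicate 1 and 3, 0.105 without a filter and 0.266 with limma-voom). Both calls held with the replicate number as a block (0.00396 in LPS+EVs and 0.00143 in LPS) and with libraries 1 and 3 only (0.000147 in LPS+EVs and 4.55e-05 in LPS); over all alternatives the adjusted p ranged over 0.000147 to 0.266 in LPS+EVs and 4.55e-05 to 0.187 in LPS. The summed level of 7 stromal markers was also lowest in replicate 2 of each group, at 529, 157 and 855 FPKM in LPS+EVs, 743, 117 and 395 FPKM in LPS and 373, 159 and 469.5 FPKM in Control, and their part in the Cxcl6 values was not tested.

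**Figure D1:**
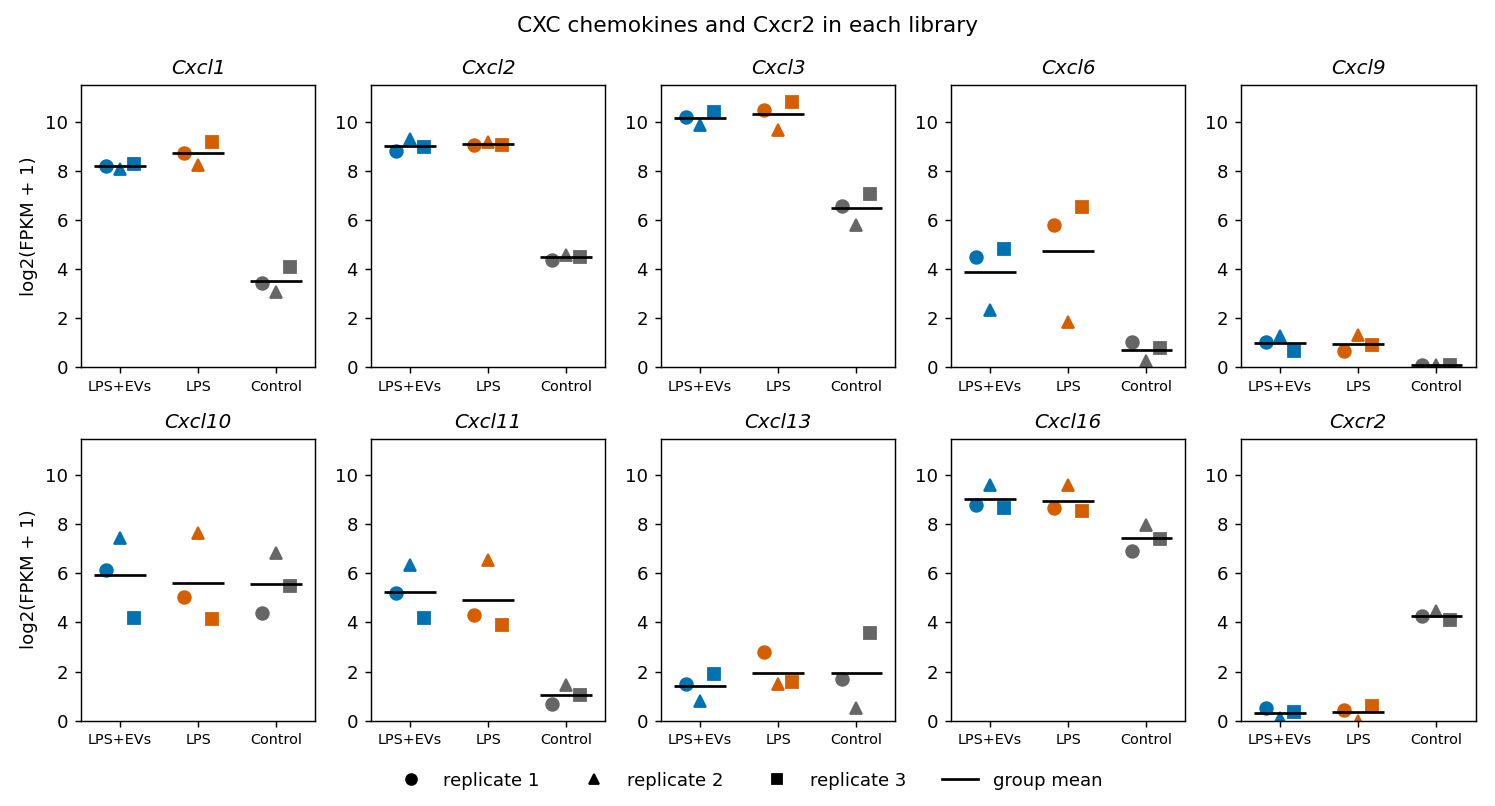
Each panel plots 1 gene as log2(FPKM + 1) in every library, with LPS+EVs, LPS and Control from left to right, a marker shape for each replicate and a line at the group mean (n = 3). Cxcl1, Cxcl2, Cxcl3, Cxcl11 and Cxcl16 sit higher in both treated groups than in Control without overlap, Cxcr2 sits lower, and Cxcl10 overlaps across all 3 groups.

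The interferon-induced ligands did not move as 1 group: Cxcl11 and Cxcl9 rose in both treated groups, and Cxcl10 did not pass in either. Cxcl11 stood at 36, 80.6 and 17 FPKM in LPS+EVs, 18.5, 91.9 and 13.7 FPKM in LPS and 0.577, 1.7 and 1.06 FPKM in Control. All treated libraries were above all Control libraries, and replicate 2 was the highest in each group. The differences from Control of Cxcl11, a potent ligand of Cxcr3, were 4.20 (SE 0.73, adjusted p = 0.00234) in LPS+EVs and 3.86 (SE 0.73, adjusted p = 0.00372) in LPS. The LPS call of Cxcl11 was lost with limma-voom on recovered reads (adjusted p = 0.0519, range over its alternatives 0.000185 to 0.0519).

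Cxcl10, the most abundant of the 3 in every library, was already well expressed in untreated cells. Cxcl10 stood at 70.2, 171 and 17.3 FPKM in LPS+EVs, 31.9, 199 and 16.9 FPKM in LPS and 20.1, 113 and 43.9 FPKM in Control. The 3 groups overlapped, and the spread within each group was wider than any difference between their means. The difference from Control was 0.35 (95% interval -2.09 to 2.79) in LPS+EVs and 0.041 (95% interval -2.40 to 2.48) in LPS, with adjusted p of 0.811 in LPS+EVs and 0.979 in LPS. With the replicate block it still did not pass (adjusted p = 0.574 in LPS+EVs and 0.951 in LPS). Within replicate numbers 1, 2 and 3, LPS minus Control was 0.64, 0.81 and -1.33 on the log2 scale, so that the direction in replicate 3 was opposite to that in the others.

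Cxcl9 was close to its detection limit. Cxcl9 stood at 1.03, 1.39 and 0.561 FPKM in LPS+EVs, 0.561, 1.48 and 0.843 FPKM in LPS and 0.0458, 0.0547 and 0.046 FPKM in Control, against 0.137 to 0.168 FPKM for 3 reads of this gene. Control libraries were at the level of 1 read each. It differed from Control by 0.90 (SE 0.21, adjusted p = 0.00917) in LPS+EVs and 0.88 (SE 0.21, adjusted p = 0.0116) in LPS. Summed over the 3 libraries of a group, 60 reads in LPS+EVs and 60 in LPS stood against 3 in Control, a ratio per assigned read of 20.8 (95% exact interval 6.8 to 104) in LPS+EVs and 19.6 (6.4 to 97.8) in LPS, intervals that cover counting error only. Without a filter on low values Cxcl9 also passed (adjusted p = 0.0154 in LPS+EVs and 0.0188 in LPS).

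Of the further ligands, Cxcl16 rose and Cxcl13 did not pass. Cxcl16 stood at 439.9, 782 and 407 FPKM in LPS+EVs, 410.0, 779 and 371 FPKM in LPS and 120.3, 248 and 170.0 FPKM in Control. Replicate 2 was again the highest of each group, and the treated libraries did not overlap Control. The differences of Cxcl16 from Control were 1.59 (SE 0.38, adjusted p = 0.00948) in LPS+EVs and 1.51 (SE 0.38, adjusted p = 0.0129) in LPS; the LPS call ended without Control replicate 1 (adjusted p = 0.0512, range over its alternatives 0.000129 to 0.0512). Cxcl13 stood at 1.84, 0.756 and 2.7 FPKM in LPS+EVs, 5.9, 1.81 and 1.96 FPKM in LPS and 2.27, 0.431 and 10.8 FPKM in Control. Control spanned both treated groups. Cxcl13 differed from Control by -0.53 (95% interval -2.14 to 1.09) in LPS+EVs and 0.017 (95% interval -1.60 to 1.63) in LPS, with adjusted p of 0.576 in LPS+EVs and 0.987 in LPS.

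Cxcr2, the receptor of the neutrophil-attracting ligands, fell in both treated groups. Cxcr2 stood at 0.412, 0.0625 and 0.259 FPKM in LPS+EVs, 0.353, 0 and 0.512 FPKM in LPS and 18, 21.2 and 15.9 FPKM in Control. Control libraries lay close together, and LPS replicate 2 had no read, where 3 reads would be 0.062 FPKM. The differences from Control were -3.96 (SE 0.20, adjusted p = 4.13e-06) in LPS+EVs and -3.92 (SE 0.20, adjusted p = 4.12e-06) in LPS, on the log2(FPKM + 1) scale. Over the group, 35 reads in LPS+EVs and 44 in LPS stood against 2683 in Control. Neutrophils are among the cells that carry Cxcr2, and the 11 neutrophil markers in the table summed to 11.2, 5.38 and 20.8 FPKM in LPS+EVs, 8.67, 3.05 and 4.35 FPKM in LPS and 255, 11.4 and 116 FPKM in Control, for replicates 1, 2 and 3. Within Control the marker sum spread over a far wider range than Cxcr2 itself, and replicate 2 had the lowest marker sum and the highest Cxcr2. Of the 5 tested markers 1 fell in LPS+EVs and 2 fell in LPS, and none rose, beside 30.8% of all genes tested called lower in LPS+EVs and 28.7% in LPS, so these counts are near the background. With the replicate block 2 fell and 1 rose in LPS+EVs and 4 fell in LPS (background 37.4% and 35.5% lower). S100a8, a calcium-binding protein of granulocytes, had the largest fall of the 5 tested markers. It differed by -3.55 (SE 1.10, adjusted p = 0.0284) in LPS+EVs and -4.51 (SE 1.10, adjusted p = 0.0116) in LPS, and its LPS+EVs libraries overlapped Control. The defining marker Prtn3 was at 0 in all 3 libraries of LPS+EVs and of LPS and in 2 of the 3 Control libraries, with 0.0975 FPKM in Control replicate 1, so it was hardly detected in any group. The part of granulocyte RNA in the Cxcr2 difference was not tested. Cxcr1, the related receptor beside Cxcr2 on chromosome 9, was also 1 of the 5 tested markers and differed upward, by 0.63 in LPS+EVs and 0.37 in LPS. Its levels were 1.74, 0.77 and 2.11 FPKM in LPS+EVs, 1.39, 0.743 and 1.09 FPKM in LPS and 0.673, 0.335 and 0.808 FPKM in Control. It did not pass (adjusted p = 0.0581 in LPS+EVs and 0.242 in LPS), although in LPS+EVs it passed with the replicate block (0.0074), as the 1 marker that rose there. Cxcr1 passed the filter on low values through treated libraries alone, so a difference was a condition of its being tested.

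In counts, 7 of the 10 genes were higher and 1 was lower in each treated group than in Control. The background for LPS+EVs against Control was 13.5% called higher and 30.8% called lower among all genes tested, and for LPS against Control it was 12.3% and 28.7%. The groups did not overlap for the same 8 genes, and 19.6% of all genes tested stood higher and 40.6% lower without overlap in LPS+EVs, with 17.5% and 37.6% in LPS. The shares of calls depend on scaling: higher genes made up 30.5% of calls in LPS+EVs and 29.9% in LPS with the deposited FPKM, and 45.3% in LPS+EVs and 44.8% in LPS with median-of-ratios scaling, which moved the median of all genes by 0.19 in LPS+EVs and 0.18 in LPS (log2). The 8 calls kept their direction and stayed calls under that scaling. LPS+EVs and LPS were compared with the same Control libraries, so the 2 comparisons are not independent.

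**Figure D2:**
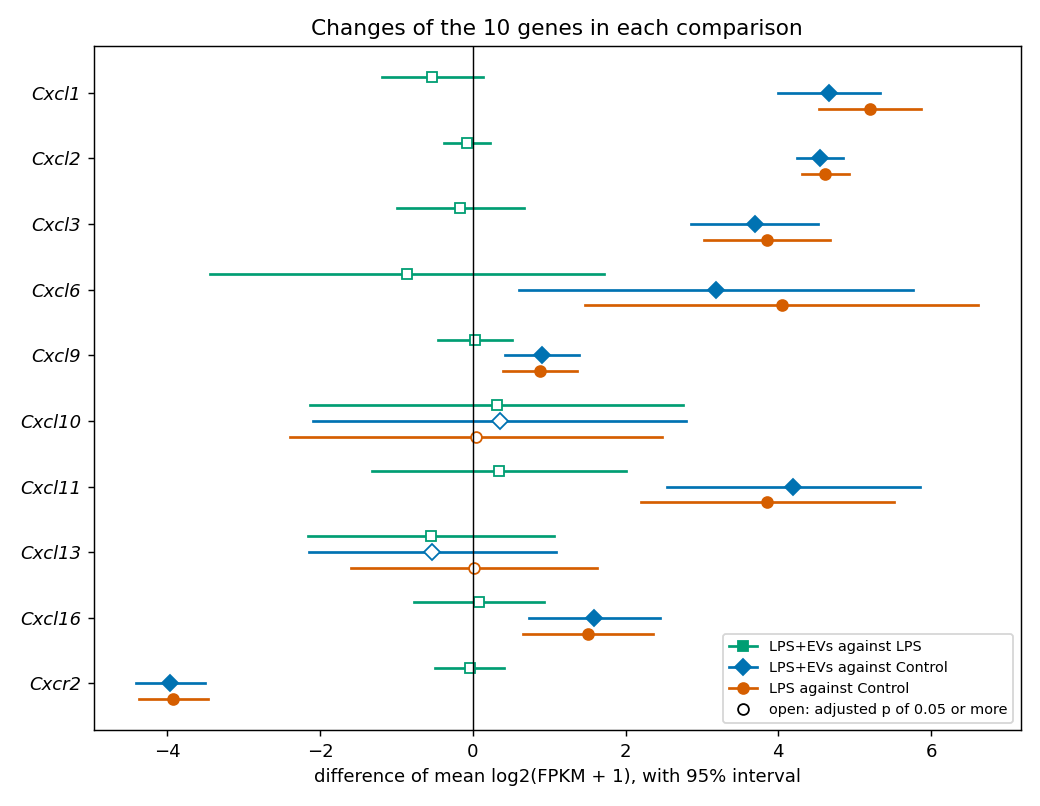
Differences of mean log2(FPKM + 1) for the 10 genes, with 95% intervals from limma; positive values are higher in the group named first in the legend entry, and open markers did not pass an adjusted p of 0.05. The 7 rises and the fall of Cxcr2 against Control have intervals clear of 0, and no gene passed between LPS+EVs and LPS.

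The comparison of the 2 ligand groups was made within each library, as the mean log2(FPKM + 1) of Cxcl1, Cxcl2, Cxcl3 and Cxcl6 minus that of Cxcl9, Cxcl10 and Cxcl11. This difference was 3.78, 2.38 and 5.11 in LPS+EVs, 5.19, 2.07 and 5.92 in LPS, and 2.14, 0.62 and 1.90 in Control, for replicates 1, 2 and 3. It averaged 3.76 ± 1.36 in LPS+EVs, 4.39 ± 2.04 in LPS and 1.56 ± 0.81 in Control (SD, n = 3 each), and replicate 2 was the lowest in every group. LPS replicate 2 lay below Control replicate 1, so LPS and Control overlapped on this measure. LPS+EVs did not overlap Control with 1 added before the log. With 0.1 added, LPS+EVs replicate 2 lay below Control replicates 1 and 3, so these groups overlapped too. Between libraries of 1 replicate number, both treated groups were above Control in 3 of 3 pairs. The neutrophil-attracting mean itself was 7.81 ± 0.37 in LPS+EVs, 8.21 ± 0.87 in LPS and 3.78 ± 0.35 in Control. The interferon-induced mean was 4.05 ± 1.01 in LPS+EVs, 3.82 ± 1.18 in LPS and 2.23 ± 0.54 in Control. These means are descriptions and carry no test. They depend on the 1 added before the log, which holds down changes of genes near 0 in both ligand groups. With 0.1 added, LPS against Control was 2.74 for Cxcl9 and 5.22 for Cxcl6, where 1 added gave 0.88 and 4.04.

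**Figure D3:**
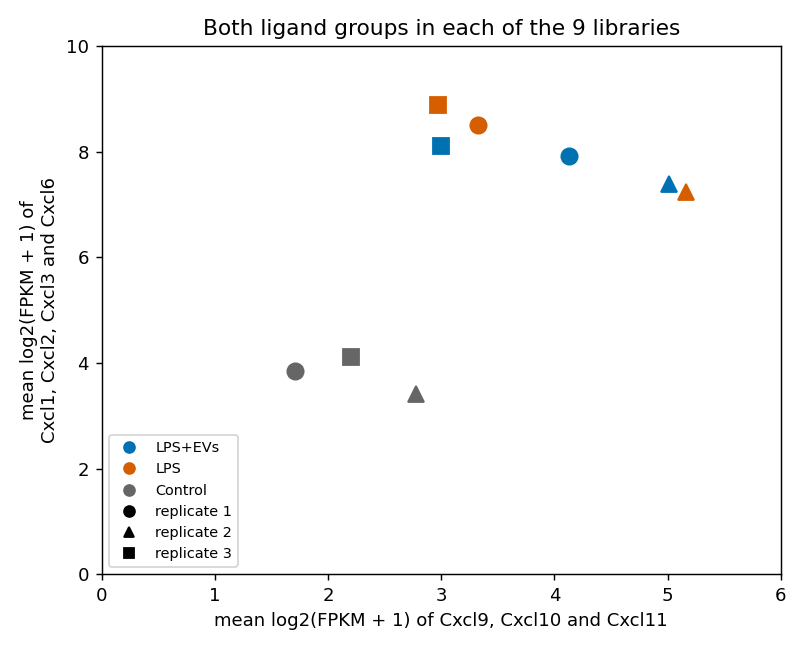
Each point is 1 library, with the mean log2(FPKM + 1) of the interferon-induced ligands on the x axis and that of the neutrophil-attracting ligands on the y axis; colour gives the group and shape the replicate. All 6 treated libraries lie above all 3 Control libraries on the y axis, and replicate 2 lies farthest to the right in each group.

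Between LPS+EVs and LPS, no chemokine of this family passed the test. By limma 0 of the 10 genes were called, against 0% of all tested genes in either direction, and the replicate block gave 0% as well. At an unadjusted p under 0.05 limma had 295 genes (2.65%) and limma-voom on recovered reads 277 genes (2.49%), none of them among these 10. The groups overlapped for all 10 genes, while among all genes tested 3.14% stood higher and 3.48% stood lower in LPS+EVs without overlap. The adjusted p was 0.999 for each of the 10.

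Cxcl1 averaged 289.6 ± 18.7 FPKM in LPS+EVs and 433 ± 142 FPKM in LPS, a log2 difference of -0.53 (95% interval -1.20 to 0.14), unadjusted p = 0.105 by limma. Taken between libraries of 1 replicate number, LPS+EVs was lower in 3 of 3 pairs, with differences of -0.52, -0.15 and -0.92 for numbers 1, 2 and 3. With the replicate block Cxcl1 was the only one of the 10 with an unadjusted limma p under 0.05, at 0.0127 and its adjusted p was 0.776 (range over its alternatives 0.264 to 1.00), so the difference did not survive adjustment. Cxcl6 averaged 17.3 ± 11.8 FPKM in LPS+EVs and 49.4 ± 44.3 FPKM in LPS, with pair differences of -1.34, 0.49 and -1.73. It was lower in replicates 1 and 3 and higher in replicate 2, and the estimate was -0.86 (95% interval -3.44 to 1.72). Without LPS replicate 2 the unadjusted limma p was 0.0263 for Cxcl1 and 0.0084 for Cxcl6, with adjusted p of 0.264 and 0.238. Cxcl3 gave pair differences of -0.28, 0.18 and -0.38 and an estimate of -0.16 (95% interval -0.99 to 0.67), with the same signs as Cxcl6. Cxcl2 gave the narrowest interval of the 10, -0.074 (95% interval -0.38 to 0.23).

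The interferon-induced ligands had estimates above 0 with wide intervals. Cxcl10 gave pair differences of 1.11, -0.22 and 0.037 and an estimate of 0.31 (95% interval -2.13 to 2.75). Cxcl11 gave 0.92, -0.19 and 0.29 and 0.34 (95% interval -1.32 to 2.0), and Cxcl9 gave 0.38, -0.051 and -0.24 and 0.029 (95% interval -0.45 to 0.51). Replicate 1 had the largest positive pair difference in all 3 of these genes, and replicate 2 was slightly negative in each. Cxcl16 stayed within 0.0067 to 0.14 in the 3 pairs, with an estimate of 0.081 (95% interval -0.77 to 0.94). Cxcl13 had an estimate of -0.55 (95% interval -2.16 to 1.07) and Cxcr2 of -0.038 (95% interval -0.49 to 0.41). These intervals do not show that the groups were alike: those of Cxcl6, Cxcl10, Cxcl11 and Cxcl13 include changes of more than 1 log2 unit in both directions. With the replicate block they were narrower, at -2.34 to 0.62 for Cxcl6, -0.84 to 1.47 for Cxcl10, -0.57 to 1.25 for Cxcl11 and -1.78 to 0.68 for Cxcl13, and each still included 0.

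**Figure D4:**
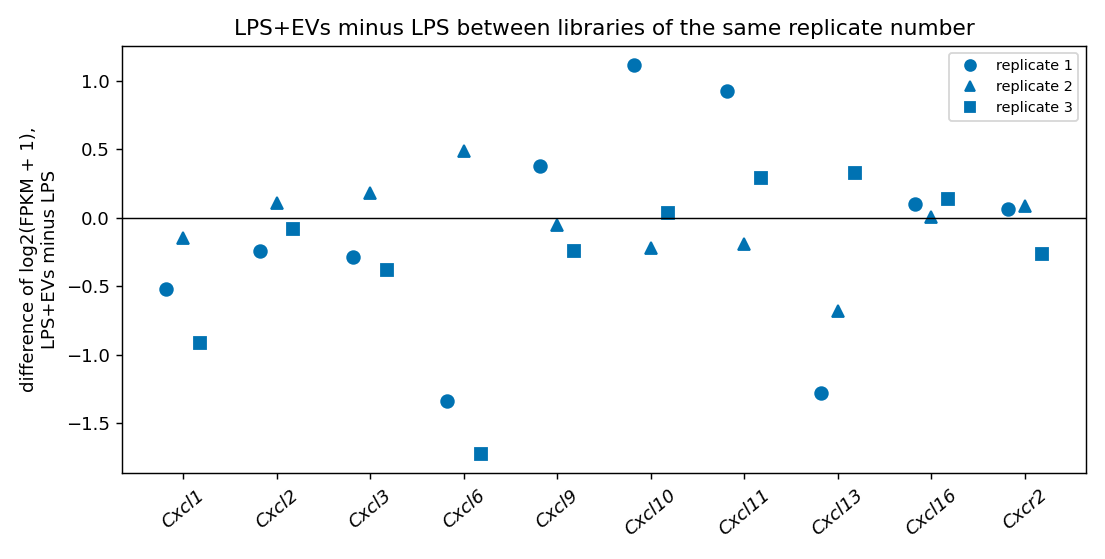
For each gene, the log2(FPKM + 1) of the LPS+EVs library minus that of the LPS library with the same replicate number, with a marker shape for each number. Cxcl1 is below 0 in all 3 pairs, Cxcl6 is below 0 in replicates 1 and 3 only, and Cxcl16 stays close to 0.

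Much of the spread within groups followed the replicate number, and Cxcl1, Cxcl3 and Cxcl6 ran against Cxcl9, Cxcl10 and Cxcl11 in it, while Cxcl2 ran with the interferon-induced ligands. Replicate 2 was the highest library of its group in all 3 groups for Cxcl10, Cxcl11, Cxcl16 and Cxcl2, which held for 9.58% of all tested genes. By FPKM the same held for Cxcl9, but each Control library had 1 read of it, so its order in Control reflects depth alone. It was the lowest in all 3 groups for Cxcl1, Cxcl3, Cxcl6 and Cxcl13, which held for 21.6% of all tested genes. Set against the mean of replicates 1 and 3, replicate 2 of Cxcl10 differed by 2.25 in LPS+EVs, 3.04 in LPS and 1.89 in Control on the log2 scale. Cxcl11 differed by 1.66 in LPS+EVs, 2.46 in LPS and 0.58 in Control. Both were far above the other replicates in the treated groups. Cxcl6 differed by -2.29 in LPS+EVs, -4.31 in LPS and -0.67 in Control, and Cxcl3 by -0.44 in LPS+EVs, -0.95 in LPS and -1.02 in Control. Both were below them. The median over all tested genes was -0.12 in LPS+EVs, -0.16 in LPS and -0.019 in Control.

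Other genes showed the same order of replicates. Of 16 interferon-stimulated genes, 12 were highest in replicate 2 of all 3 groups and none was lowest throughout, with Isg15, a ubiquitin-like antiviral protein, at 429, 993 and 493 FPKM in LPS+EVs, 475, 862 and 579.5 FPKM in LPS and 45.9, 172 and 97.1 FPKM in Control. Of 10 tested dendritic cell markers 7 were highest in replicate 2 throughout, and all 7 stromal markers were lowest there. The 7 dendritic cell markers were Cd74, Ciita, the MHC class II genes RT1-Da, RT1-Db1, RT1-Ba and RT1-Bb, and Zbtb46. The others, Itgax, Ccr7 and Fscn1, were each lowest in replicate 2 of LPS, at 36.9, 142 and 48.8 FPKM. Ifnb1, the gene of interferon beta, was too low to test. It was listed at 0, 0.248 and 0 FPKM in LPS+EVs, 0, 0.0491 and 0 FPKM in LPS and 0, 0.0546 and 0 FPKM in Control. Its reads were in replicate 2 of each group, but they were too few to set an order of replicates. The part of cell composition in the chemokine values of replicate 2 was not tested. Without replicate 2, the 8 calls against Control remained calls in both comparisons, Cxcl10 stood at 0.23 in LPS+EVs and -0.34 in LPS (adjusted p = 0.796 in LPS+EVs and 0.698 in LPS), and Cxcl6 at 3.72 in LPS+EVs and 5.26 in LPS.

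**Figure D5:**
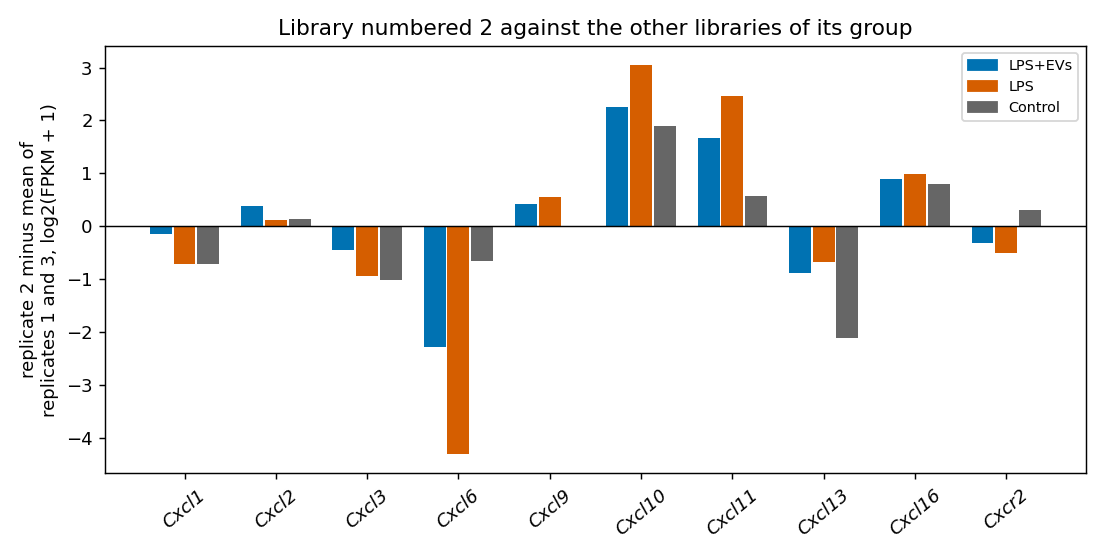
Bars give the log2(FPKM + 1) of replicate 2 minus the mean of replicates 1 and 3 of the same group, for LPS+EVs, LPS and Control. Cxcl10 and Cxcl11 are above 0 and Cxcl6, Cxcl3 and Cxcl1 below 0 in all 3 groups.

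Of 6 tested ligands of the CXC and related families outside the 10 genes, 2 rose and none fell in both treated groups against Control, beside 13.5% of all genes tested called higher in LPS+EVs and 12.3% in LPS (median log2 difference 0.62 in LPS+EVs and 0.69 in LPS, with -0.19 in LPS+EVs and -0.19 in LPS over all tested genes). With the replicate block 4 were higher and 1 lower in each, where the block called 17.8% of all genes higher and 37.4% lower in LPS+EVs, and 17.2% and 35.5% in LPS. Ppbp stood at 18.8, 6.87 and 57.4 FPKM in LPS+EVs, 38.9, 5.19 and 112 FPKM in LPS and 0.721, 0 and 0.434 FPKM in Control. This ligand of Cxcr2, the neighbour of Cxcl6, had the same order of replicates as Cxcl6 in the treated groups and differed from Control by 3.95 (SE 1.02, adjusted p = 0.0142) in LPS+EVs and 4.49 (SE 1.02, adjusted p = 0.00894) in LPS. Cxcl17, a mucosal chemokine, rose by 1.91 (SE 0.36, adjusted p = 0.00339) in LPS+EVs and 1.74 (SE 0.36, adjusted p = 0.00563) in LPS. Both Ppbp and Cxcl17 passed the filter through treated libraries alone, so a difference was likewise a condition of their being tested. Cxcl12, the ligand of Cxcr4, differed by -1.20 (SE 0.43, adjusted p = 0.0505) in LPS+EVs and -0.74 (SE 0.43, adjusted p = 0.203) in LPS, and passed with the replicate block in both, with adjusted p of 0.00364 in LPS+EVs and 0.0308 in LPS. The membrane-bound Cx3cl1 differed by 0.64 (SE 0.30, adjusted p = 0.11) in LPS+EVs and 0.37 (SE 0.30, adjusted p = 0.352) in LPS, and with the block it passed in LPS+EVs (adjusted p = 0.0107) and not in LPS (0.0895). Pf4, platelet factor 4, lies next to Cxcl3 in the gene order and was high in every group, at 961 ± 395 FPKM in LPS+EVs, 1155 ± 619.6 FPKM in LPS and 748 ± 315 FPKM in Control (SD, n = 3 each). It did not pass in LPS+EVs (adjusted p = 0.561, 0.0291 with the replicate block) or in LPS (adjusted p = 0.368, 0.00501 with the replicate block). Of the 2 tested CXC receptors that are not among the 10 genes, Cxcr4, the receptor of Cxcl12, rose in LPS+EVs by 1.65 (SE 0.40, adjusted p = 0.0102) and in LPS by 1.86 (SE 0.40, adjusted p = 0.00666), and Cxcr1 did not pass. Cxcr3, the receptor of the interferon-induced ligands, was too low to test, at 0, 0 and 0.0748 FPKM in LPS+EVs, 0, 0 and 0 FPKM in LPS and 0, 0.0182 and 0.0766 FPKM in Control.

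In the list of NF-kB and C/EBP induction, the route to the neutrophil-attracting ligands, 10 of 20 tested members rose and 3 fell in both treated groups against Control (median 0.74 in LPS+EVs and 0.70 in LPS). The backgrounds were 13.5% higher and 30.8% lower in LPS+EVs, and 12.3% and 28.7% in LPS. With the replicate block 13 rose and 3 fell in both, where the block called 17.8% of all genes higher and 37.4% lower in LPS+EVs, and 17.2% and 35.5% in LPS. Il1b and Il1a, the inflammatory interleukins 1 that themselves induce these ligands, rose by 5.80 and 4.33 in LPS+EVs and by 5.48 and 4.50 in LPS. Irak2, a kinase below Toll-like and interleukin-1 receptors, rose by 1.80 (SE 0.12, adjusted p = 1.85e-05) in LPS+EVs and 1.77 (SE 0.12, adjusted p = 2.01e-05) in LPS. Nfkbia, the inhibitor of NF-kB that is also its target, rose by 2.42 in LPS+EVs and 2.20 in LPS. The 3 that fell were Tlr4, the LPS receptor, Cebpd, a C/EBP factor, and Il17ra, the interleukin-17 receptor chain, with Tlr4 at -2.25 (SE 0.39, adjusted p = 0.00226) in LPS+EVs and -1.90 (SE 0.39, adjusted p = 0.00531) in LPS. Of 7 genes that control the decay of chemokine mRNA, 2 rose and 2 fell in each treated group, and the share that fell is near the background of 30.8% lower in LPS+EVs and 28.7% in LPS. Zc3h12a, an RNase that cleaves inflammatory mRNAs, differed by 1.89 (SE 0.19, adjusted p = 0.000153) in LPS+EVs and 1.92 (SE 0.19, adjusted p = 0.000142) in LPS, and Zfp36, which binds AU-rich elements, by 2.36 (SE 0.47, adjusted p = 0.00436) in LPS+EVs and 1.97 (SE 0.47, adjusted p = 0.0106) in LPS. The 2 that fell were Zfp36l2, a relative of Zfp36, at -0.94 in LPS+EVs and -1.22 in LPS, and the AU-rich element binding protein gene Hnrnpd, at -0.67 in LPS+EVs and -0.58 in LPS. The median of the list was -0.13 in LPS+EVs and -0.27 in LPS.

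In the list of interferon production and signalling, 6 of 21 tested genes were higher in each treated group, and 4 were lower in LPS+EVs and 3 in LPS (median 0.22 in LPS+EVs and 0.25 in LPS). With the replicate block 8 were higher in LPS+EVs and 10 in LPS, and 4 were lower in each. Over all genes tested 13.5% were called higher and 30.8% lower in LPS+EVs, and 12.3% higher and 28.7% lower in LPS. Under the block the shares were 17.8% higher and 37.4% lower in LPS+EVs, and 17.2% and 35.5% in LPS. Irf7, the transcription factor that drives type I interferon genes, rose by 3.08 (SE 0.52, adjusted p = 0.00205) in LPS+EVs and 2.96 (SE 0.52, adjusted p = 0.00261) in LPS. Usp18, a negative regulator of the interferon receptor, rose by 2.53 in LPS+EVs and 2.57 in LPS, and the receptor chain Ifnar1 by 0.90 in LPS+EVs and 0.94 in LPS. Irf2, a repressor of interferon genes, differed by -0.38 (SE 0.099, adjusted p = 0.0151) in LPS+EVs and -0.55 (SE 0.099, adjusted p = 0.00291) in LPS. Irf1 differed by 1.03 (SE 0.43, adjusted p = 0.0803) in LPS+EVs and 0.76 (SE 0.43, adjusted p = 0.188) in LPS. Under the replicate block its adjusted p was 0.00374 in LPS+EVs and 0.0157 in LPS. Of 16 interferon-stimulated genes 14 were higher and none lower in each treated group (median 2.20 in LPS+EVs and 2.14 in LPS), among them Ifit3, which restrains viral RNA (4.82 in LPS+EVs and 4.80 in LPS), Cd274, the checkpoint ligand (3.33 in LPS+EVs and 3.02 in LPS), Isg20 (1.58 in LPS+EVs and 1.47 in LPS) and Gbp4 (2.07 in LPS+EVs and 2.07 in LPS). Of 7 tested genes for the shedding and trimming of CXC ligands, 1 rose in each treated group and 1 fell in LPS+EVs (median 0.48 in LPS+EVs and 0.50 in LPS). With the replicate block 3 rose in LPS+EVs and 2 in LPS, and 1 fell in each, beside the shares of 17.8% higher and 37.4% lower in LPS+EVs, and 17.2% and 35.5% in LPS, under the block. The counts without the block are near or below the background of 13.5% higher and 30.8% lower in LPS+EVs, and 12.3% and 28.7% in LPS. Timp1, an inhibitor of metalloproteinases, rose by 1.26 (SE 0.30, adjusted p = 0.00956) in LPS+EVs and 1.25 (SE 0.30, adjusted p = 0.0108) in LPS. Adam10, a sheddase of Cxcl16, stood at -0.44 (SE 0.16, adjusted p = 0.0474) in LPS+EVs, where it passed, and at -0.41 (SE 0.16, adjusted p = 0.068) in LPS. Rhbdf2, a partner of the sheddase Adam17, stood at 0.49 in LPS+EVs and 0.50 in LPS and passed only with the replicate block, with adjusted p of 0.0404 in LPS+EVs and 0.0389 in LPS. Timp3, an inhibitor of Adam17, stood at 1.58 in LPS+EVs and 1.24 in LPS, and with the block it passed in LPS+EVs (adjusted p = 0.0241) and not in LPS (0.0606). In LPS+EVs against LPS none of these lists had a called gene.

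The genes with the pattern most like each of the 10 were found as the smallest root mean square difference of log2(FPKM + 1), each gene centred on its own mean, over the 9 libraries. For Cxcl1 they were Csf3 (0.33), Il1a (0.43) and Lcn2 (0.43), led by the granulocyte growth factor gene Csf3. For Cxcl2 they were Il1a (0.30), Ebi3 (0.33) and Ass1 (0.59), for Cxcl3 Csf3 (0.45), Srgn (0.45) and Wfdc21 (0.46), and for Cxcl6 Ppbp (0.53), Mmp3 (0.54) and Wfdc21 (0.80). Ppbp is both the neighbour of Cxcl6 in the gene order and the gene nearest to it in pattern. For Cxcl9 they were Traf6 (0.092), LOC103691468 (0.11) and Trim5 (0.11), for Cxcl10 LOC100360791 (0.58), RGD1562525 (0.66) and Fcrla (0.69), and for Cxcl11 Mxd1 (0.40), Hspa1b (0.50) and Ass1 (0.60). The added 1 flattens Cxcl9 near its detection limit, so its small distances do not mean a like fold change. Traf6 averaged 9.10 FPKM in LPS and 4.47 FPKM in Control, where the pooled reads of Cxcl9 gave a ratio of 19.6. The nearest gene of Cxcl10 was less like it than the nearest gene of any other of the 10 was, and none of the 3 interferon-induced ligands shared a nearest gene with another of them. For Cxcl13 they were Tspan6 (0.54), Sox4 (0.54) and Cthrc1 (0.55). Those of Cxcl16 were Dhx58 (0.11), Slfn4 (0.13) and Tapbp (0.15), where Dhx58 encodes an antiviral RNA helicase and Tapbp the peptide loading protein tapasin. Cxcr2 had Kif2c (0.21), Birc5 (0.22) and Cdca3 (0.24), genes of cell division that were high in Control alone.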

How the data were processed

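Gene expression was measured by RNA sequencing of total RNA in 9 libraries, 3 in each of the groups LPS+EVs, LPS and Control, which were taken with the replicate numbers from the sample titles. The authors deposited 1 table of FPKM per library; fastp, HISAT2, HTSeq, R 3.2.0 and build mRatBN7.2 are named in the submitters' processing notes, without settings, and strand and annotation are not given in the sources used here. How reads shared by similar chemokine genes were assigned is likewise unknown.

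Within a gene, FPKM differ by multiples of what 1 read adds, which gave whole reads within 0.01 reads for 18833 of 18833 genes seen in at least 2 libraries, up to a factor common to a gene; these set the depths, the 3-read limits and 1 alternative. The comparisons were planned for FPKM, and limma 3.58.1 in R 4.3.3 was fitted to log2(FPKM + 1) across the genes that reached 1 FPKM in 3 or more libraries, 1 mean per group over the 9 libraries, moderated variances with a trend, two-sided p-values and Benjamini-Hochberg adjustment within each comparison. The script was tested on simulated data with known changes. Named genes are the 10 members, up to 4 genes per list with the smallest adjusted p in LPS against Control, and the 3 nearest patterns of each member; further genes (Tlr4, Cebpd, Il17ra, Isg15, Ifnb1, Irf1, Pf4, Cxcr3, S100a8 and Prtn3) were added for their role or after their values were seen. The members and lists were chosen with earlier results of these data known, and the letters of the NF-kB and interferon motifs were set after the promoters had been read.

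After removal of group means, libraries with the same replicate number correlated at 0.28 to 0.86 across groups, and those with different numbers at -0.74 to 0.43, so the numbers were taken to pair the cultures, a reading that comes from the data and not from the labels. Alternatives were median-of-ratios scaling, no filter, 0.1 in place of 1 added before the log, a fit to only the 2 groups compared, the replicate number as a block (also with median-of-ratios scaling), limma-voom on recovered reads, each library left out, and libraries 1 and 3 only, the last chosen after seeing the data. Python 3.11.15, pandas 2.3.3, scipy 1.17.1 and matplotlib 3.10.9 were used for tables and figures.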

Additional observations from a re-analysis of the deposited data

How the results depend on the processing

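Under 14 alternatives for each gene and comparison, Cxcl1, Cxcl2, Cxcl3, Cxcl9 and Cxcr2 kept their direction and their calls against Control, and the replicate block changed no call among the 10 genes. The exceptions, for Cxcl6, Cxcl11 and Cxcl16, are given beside their values. With the replicate block, genes called higher numbered 1912 in LPS against Control, and with the block and median-of-ratios scaling 2685, against 1368 without either; in LPS+EVs against Control the block with scaling gave 2809, against 1505. Leaving out LPS replicate 2 gave 1 gene called higher in LPS+EVs against LPS, with a range of 0 to 1 over the libraries left out, and none of the 10 genes was called there. Changes that did not pass altered sign under 29 of 420 recomputed values, and the cause was not tested. With libraries 1 and 3 only, LPS against Control gave -0.34 for Cxcl10 and -0.46 for Cxcl13. Cxcr2 in LPS+EVs against LPS gave 0.037 with 0.1 added and 0.67 with limma-voom. With each library left out, the log2 differences in LPS+EVs against LPS ranged over -0.20 to 0.035 for Cxcl2, -0.48 to 0.073 for Cxcl3, -2.30 to 0.038 for Cxcl6, -0.12 to 0.21 for Cxcl9, -0.44 to 1.32 for Cxcl10, -0.21 to 1.16 for Cxcl11, -0.21 to 0.41 for Cxcl16 and -0.21 to 0.088 for Cxcr2. In LPS+EVs against Control they ranged over -0.40 to 1.22 for Cxcl10 and -1.24 to 0.29 for Cxcl13, and in LPS against Control over -0.97 to 0.77 for Cxcl10 and -0.69 to 0.83 for Cxcl13. The neutrophil-attracting minus interferon-induced difference of LPS+EVs minus LPS ranged over -1.79 to 0.13. Depth limited Cxcl9, and Cxcr2 in the treated groups, to at most 30 reads a library.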
